A study of Mus musculus with 2 samples.

Results

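The genes described here are 35 genes of the amino acid response that the transcription factor ATF4 governs, out of 32285 genes counted in single B16 F10 mouse melanoma cells. They were named from known function and not picked by their values, although earlier results of these data were known when they were chosen. They comprise 5 transcription factors (Atf4, Atf5, Ddit3, Cebpb and Nupr1), 3 feedback and stress effectors (Trib3, Chac1 and Sesn2), 9 genes of amino acid and one-carbon synthesis (Asns, Psat1, Phgdh, Psph, Shmt2, Mthfd2, Aldh18a1, Pycr1 and Cth), 5 amino acid transporters (Slc7a5, Slc3a2, Slc7a1, Slc1a5 and Slc38a2) and 13 cytosolic aminoacyl-tRNA synthetases (Sars, Nars, Wars, Aars, Cars, Gars, Iars, Lars, Mars, Tars, Yars, Eprs and Vars). The high pigment and the low pigment group are the fractions of B16 F10 cells with high and low side scatter on a flow cytometer, the measure of pigment used for the sort. B16 F10 is an established line that makes melanin, so both groups are transformed cells of 1 line. Both came from cells seeded at 100 cells per cm2, with no added agent named, and grown for 7 days in DMEM rich in glucose that held 10% serum. Each fraction gave 1 droplet library of 3' ends of polyadenylated RNA, so no difference below has a replicate check.

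ATF4 is a basic leucine zipper protein whose messenger is translated best when the initiation factor eIF2alpha is phosphorylated, as happens when amino acids run short or the endoplasmic reticulum is stressed. Its protein level is therefore set to a large extent by translation, and the level of its messenger is not a measure of its activity. Bound to C/EBP family partners, ATF4 switches on genes that make amino acids, carry them into the cell and join them to their tRNAs. In pigment cells, protein synthesis and melanin synthesis draw on shared amino acids, since melanin is made from tyrosine.

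The authors' cell table held 2136 high pigment cells with 28848691 unique molecular identifiers (UMIs, each marking 1 captured messenger) and 1900 low pigment cells with 32437194 UMIs. The median cell had 12557 UMIs in the high pigment and 16019.5 in the low pigment library. Levels are given as UMIs of a gene per 1000000 UMIs of the library (CPM), that is, as shares of each library's messengers and not as messengers per cell. Intervals are exact 95% intervals that cover counting error only. A gene was counted as measured at a mean of at least 10 CPM, which 7849 genes reached, and was called by size alone, higher at a ratio at least 25% above 1 and lower at a ratio of at most 0.8. Folds given as lower are the inverse of the ratio. The label of the cells is melanocytes. The 7 melanocyte markers summed to 14732 CPM in high pigment and 11243 CPM in low pigment cells, while the 4 endothelial markers had 5 and 6 UMIs, the 4 keratinocyte markers 1 and 6 UMIs, the 6 fibroblast markers 62 and 27 UMIs and the 6 leukocyte markers 37 and 151 UMIs. Barcode sequences shared by the libraries numbered 2, of which 0 were in the table for both.

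Many genes of this response carry the C/EBP-ATF response element, TGATGNAA on either strand, near their start. RefSeq promoters of build GRCm38.p6, from 250 bases before to 50 bases after the start, were at hand for 26 of the 35 genes. The element was found in 10 of these (38.5%), beside 4.51% of the 27025 genes with such a promoter. A match of these letters is a description of the sequence and does not show that a factor binds there. The stretches below surround the element where it lies before the start, with the element in capitals. They are printed 5' to 3' on the strand of the gene, and are shown because the element is a feature of these genes that their choice did not use, although genes of this response are known in part by it.

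Nupr1: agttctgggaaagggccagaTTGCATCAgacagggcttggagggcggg
Chac1: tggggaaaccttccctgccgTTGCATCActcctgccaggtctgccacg
Asns: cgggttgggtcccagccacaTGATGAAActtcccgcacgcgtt
Pycr1: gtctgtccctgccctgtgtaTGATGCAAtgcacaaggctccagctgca
Aars: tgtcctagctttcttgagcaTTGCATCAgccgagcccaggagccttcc
Gars: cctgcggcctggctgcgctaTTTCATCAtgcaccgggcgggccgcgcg
Tars: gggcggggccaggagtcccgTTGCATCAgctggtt

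The Asns stretch lies at chr6:7693210-7693252 on the minus strand of GRCm38.p6, and its element ends 16 bases before the start. In Tars (chr15:11399659-11399693, minus strand) it ends 8 bases and in Gars (chr6:55037951-55037998, plus strand) 23 bases before it. In Pycr1 (chr11:120643824-120643871, minus strand), Nupr1 (chr7:126625553-126625600, minus strand), Aars (chr8:111033710-111033757, plus strand) and Chac1 (chr2:119351029-119351076, plus strand) the element ends 96, 103, 105 and 186 bases before the start. TTGCATCA, which is TGATGCAA read on the other strand, stands in Nupr1, Chac1, Aars and Tars. Trib3, Iars and Yars hold the element only after the start, and Aars holds another match there. Of the 7 synthetases with a promoter at hand, 5 hold the element, namely Aars, Gars, Iars, Tars and Yars, while Sars and Eprs do not.

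In high pigment cells Atf4 itself, its partner Ddit3, the serine synthesis gene Phgdh, the cysteine synthesis gene Cth and the methionine synthetase gene Mars were lower than in low pigment cells, while most members were called neither. High pigment cells held more messenger of 11 of the 34 measured members and less of 23, as shares of all UMIs. Of the 34, 1 was called higher (the arginine and lysine transporter gene Slc7a1) and 10 were lower in high pigment cells, with 23 called neither. Across all measured genes 10.9% were called higher and 23.4% lower, so the share of members called lower was not far from that of genes at large. Those shares also stand beside each count over all cells for a group or list below. Among genes of at least 50 CPM, 6 of 26 members were lower, beside 13.3% of all genes at that level. The members' median log2 ratio was −0.14, beside −0.08 over all measured genes. When ratios were centred on the median gene, in place of scaling by total UMIs, 3 members were higher and 6 lower, and the shares over all genes were 15.8% higher and 17.3% lower. As mean UMIs per cell with no scaling, where the median of all genes was −0.42 on the log2 scale, Slc7a1 alone kept a ratio over 1, so for the other members with a ratio over 1 the direction over all cells turned on the scale. The interval of the ratio held 1 for 4 members (Chac1, Psph, Mthfd2 and Slc38a2). Pycr1, which makes proline, was below the limit of measurement, with 4.09 CPM in high pigment and 5.49 CPM in low pigment cells (118 and 178 UMIs).

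**Figure D1:**
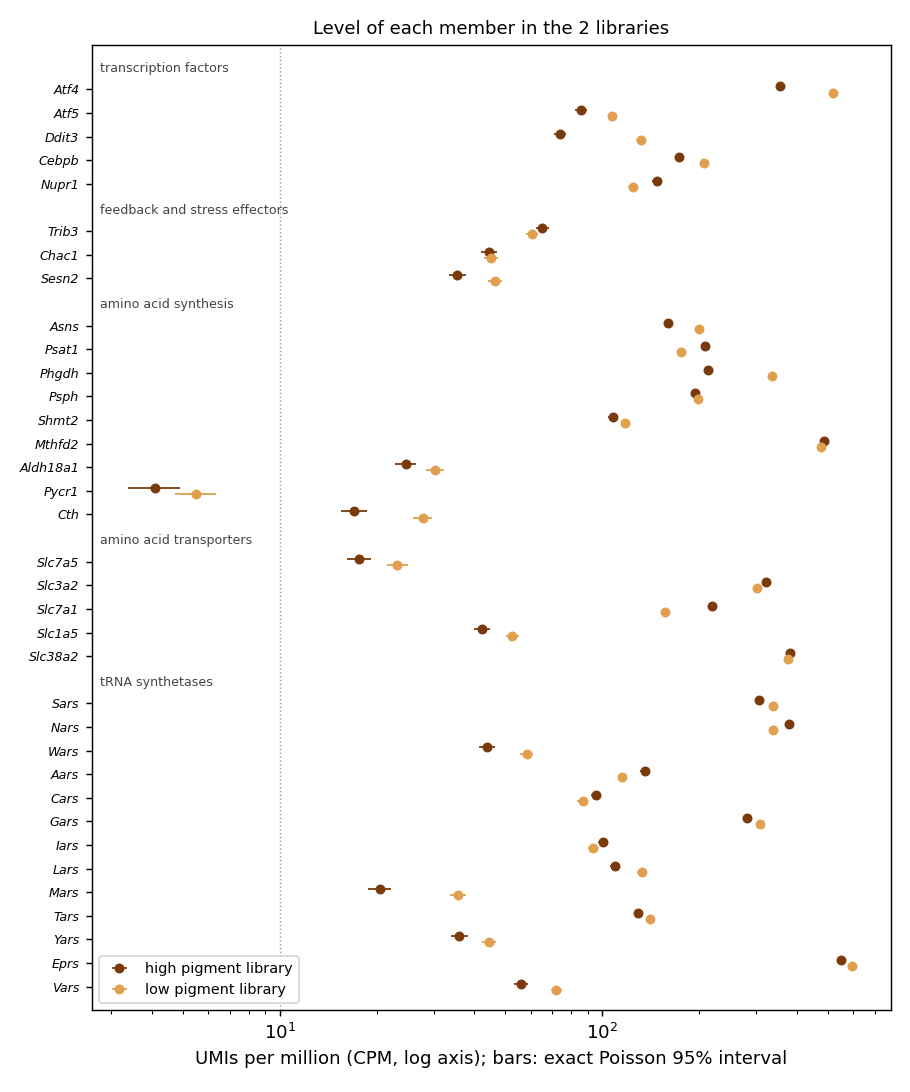
Level of each of the 35 genes in the high pigment and the low pigment library, in CPM on a log axis, with exact Poisson 95% intervals; the dotted line marks 10 CPM. Slc7a1 is the only member called higher in high pigment cells, and Atf4, Ddit3, Phgdh, Cth and Mars show the widest gaps in the other direction.

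Over all cells, transcription factors had the lowest median of the 5 groups, at a log2 ratio of −0.32. Of the 5 factors 3 were lower and 0 higher in high pigment cells, beside 23.4% and 10.9% of all measured genes. In G2M cells their median was −0.13, above the −0.25 of the synthesis genes and the −0.15 of the synthetases. The summed level of the factors over all cells was 835 CPM in high pigment and 1088 CPM in low pigment cells. Atf4 (chromosome 15, 80255184 to 80257541) had 355 CPM in high pigment cells (10243 UMIs), against 519 CPM in low pigment cells (16827 UMIs), a ratio of 0.684 (0.668–0.702), 1.46-fold lower. The messenger of the factor that names this response was thus less abundant in the high pigment library. Ddit3 (chromosome 10, 127290774 to 127296288) encodes CHOP, a partner of ATF4 tied to cell death under lasting stress. It had 73.9 CPM in high pigment and 131 CPM in low pigment cells, 1.78-fold lower (1.69–1.87), the smallest ratio of the 34 measured members, though within counting error of that of Mars. Atf5 (chromosome 7, 44812256 to 44816658), a close relative of Atf4 that also responds to mitochondrial stress, had 85.8 CPM in high pigment and 107 CPM in low pigment cells. At a ratio of 0.799 (0.759–0.842) it lay just past the limit, which it also passed in 4 of 10 other settings.

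The other 2 factors were called neither. Cebpb, a C/EBP partner of ATF4, had 173 CPM in high pigment and 206 CPM in low pigment cells (ratio 0.840). Nupr1, a small nuclear stress protein gene, had 147 and 124 CPM (ratio 1.19) and was the only factor with more messenger in high pigment cells.

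The 15 immediate early genes, fast response genes such as Fos and Jun that dissociation of cells can also induce, moved the same way as Atf4 and Ddit3. Of their 14 measured members 13 were lower and 0 higher in high pigment cells, and they summed to 631 CPM in high pigment and 2502 CPM in low pigment cells. Their part in the lower levels of Atf4 and Ddit3 was not tested. The high pigment library also had 5 barcodes with over 50% mitochondrial UMIs and the low pigment library 434, all outside the cells compared.

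Of the 3 feedback and stress effectors 1 was lower and 0 higher. Their median log2 ratio was −0.02, the value of Chac1, but 0.061 with ratios centred on the median gene and 0.076 in thinned cells. Sesn2 (chromosome 4, 132492032 to 132510501), which encodes a leucine sensor that restrains mTORC1, had 35.5 CPM in high pigment and 46.4 CPM in low pigment cells, 1.31-fold lower (1.21–1.42), though its ratio was 0.809 with ratios centred on the median gene. Trib3, a pseudokinase gene that ATF4 and CHOP induce and that feeds back on them, had 65.1 CPM in high pigment and 60.5 CPM in low pigment cells (ratio 1.07). Chac1, which degrades glutathione and is another ATF4 and CHOP target, had 44.5 and 45.1 CPM. The Chac1 ratio of 0.987 had an interval of 0.915–1.06. So the lower Atf4 and Ddit3 stood beside Trib3 and Chac1 levels that did not pass the limit. Trib3 was, however, 1.45-fold higher in cells with 12000 to 16000 UMIs, a window that was not matched for phase. Median UMIs were 10466, 11753 and 14087 in high pigment G1, S and G2M cells, and 13817, 16663 and 20280 in low pigment cells. Within G1, S and G2M cells the Trib3 ratio was 0.911, 1.14 and 1.14. The part of phase in the value of that window was not tested.

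In amino acid synthesis the serine pathway was split. Phgdh (chromosome 3, 98313170 to 98339990), the opening enzyme of serine synthesis, had 212 CPM in high pigment cells (6124 UMIs), against 334 CPM in low pigment cells (10850 UMIs), 1.58-fold lower (1.53–1.63). Psat1, which acts next, had 208 CPM in high pigment and 176 CPM in low pigment cells, a ratio of 1.18 (1.14–1.23). Psph, which completes serine, had 194 and 197 CPM, with a ratio of 0.981 (0.947–1.02). The 3 enzymes of this pathway thus had ratios on either side of 1, and only Phgdh passed the limit.

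Cth (chromosome 3, 157894248 to 157925077), the cystathionine gamma-lyase gene that yields cysteine, had 17.0 CPM in high pigment and 27.7 CPM in low pigment cells, 1.63-fold lower (1.46–1.82). Asns, the asparagine synthetase gene, had 159 CPM in high pigment and 199 CPM in low pigment cells, a ratio of 0.802 (0.772–0.833) just inside the limit. The mitochondrial folate enzymes Shmt2 and Mthfd2 had ratios of 0.914 and 1.02, Shmt2 with 108 CPM in high pigment and 118 CPM in low pigment cells and Mthfd2 with 488 CPM in high pigment and 477 CPM in low pigment cells. Aldh18a1, of proline synthesis, had 24.5 and 30.2 CPM (ratio 0.812). In all, 2 of the 8 measured synthesis genes were lower and 0 higher, beside 23.4% and 10.9% of all measured genes. The group had a median log2 ratio of −0.21 and a sum of 1415 CPM in high pigment and 1565 CPM in low pigment cells. That median was −0.13 with ratios centred on the median gene, −0.14 in thinned cells and −0.05 in cells with 12000 to 16000 UMIs. The window of 12000 to 16000 UMIs was not matched for phase. Within G1, S and G2M cells the median of the synthesis genes was −0.18, −0.20 and −0.25.

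Of the 5 transporters 1 was higher and 1 lower in high pigment cells. Their median log2 ratio was 0.02, the value of Slc38a2, whose interval held 1, and it was −0.15 in G1 cells. Slc7a1 (chromosome 5, 148327410 to 148399904), the carrier of arginine and lysine, had 218 CPM in high pigment cells (6293 UMIs), against 157 CPM in low pigment cells (5079 UMIs), 1.39-fold higher (1.34–1.45). Slc7a5 (chromosome 8, 121881150 to 121907694), the light chain of the LAT1 carrier of leucine and other large amino acids, had 17.6 CPM in high pigment and 23.2 CPM in low pigment cells, 1.31-fold lower (1.17–1.47), though its ratio was 0.804 when centred on the median gene. Slc3a2, the heavy chain that pairs with Slc7a5, had 321 and 301 CPM (ratio 1.07). Over all cells the chains of this carrier had ratios on opposite sides of 1, but in G1 cells Slc3a2 had 303 CPM in high pigment and 335 CPM in low pigment cells, a ratio of 0.904 (0.860–0.951), and both were under 1. Slc1a5, a glutamine exchanger, had 42.2 CPM in high pigment and 52.6 CPM in low pigment cells (ratio 0.803). Slc38a2, a sodium-coupled carrier of small neutral amino acids, had 383 and 378 CPM, with a ratio of 1.01 (0.988–1.04).

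The 13 tRNA synthetases summed to 2242 CPM in high pigment and 2357 CPM in low pigment cells, and their median log2 ratio was −0.13. In high pigment cells 3 of 13 were lower and 0 higher, beside 23.4% and 10.9% of all measured genes. Mars (chromosome 10, 127296221 to 127311786), the methionine enzyme gene, had 20.4 CPM in high pigment and 35.8 CPM in low pigment cells, 1.75-fold lower (1.58–1.94). Mars and Ddit3 lie on opposite strands and their 3' ends overlap by 68 bases in the GENCODE vM21 annotation (build GRCm38, chromosome 10, 127296221 to 127296288). Whether counting used strand is not stated, so reads from this overlap cannot be told apart if it did not. Atf5, Cebpb, Psph, Shmt2, Wars and Yars also overlap a gene on the opposite strand, so a like limit holds for them. Sesn2 overlaps Gm12981 (205 UMIs) and Aars overlaps Exosc6 (0 UMIs) on the same strand, where strand cannot tell reads apart.

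Wars (chromosome 12, 108860030 to 108894174), of tryptophan, had 43.9 CPM in high pigment and 58.3 CPM in low pigment cells, 1.33-fold lower (1.24–1.43). Vars (chromosome 17, 35000987 to 35016322), of valine, had 55.9 and 71.9 CPM, 1.29-fold lower (1.21–1.37). Vars was past the limit in 5 of the 10 settings that recomputed its ratio. Its log2 ratio, −0.36, was −0.28 with ratios centred on the median gene, −0.22 in thinned cells and −0.11 in cells with 12000 to 16000 UMIs. That window was not matched for phase, and the Vars ratios within G1, S and G2M cells were 0.815, 0.779 and 0.734. The other 10 synthetases were called neither. Those with ratios under 1 were Sars of serine (0.907), Gars of glycine (0.912), Lars of leucine (0.826), Tars of threonine (0.920), Yars of tyrosine (0.809) and Eprs (0.921), whose protein serves both glutamate and proline and which had 548 CPM in high pigment and 595 CPM in low pigment cells. Nars of asparagine, Aars of alanine, Cars of cysteine and Iars of isoleucine had ratios of 1.13, 1.17, 1.10 and 1.08, with intervals above 1. Yars had 36.0 CPM in high pigment and 44.5 CPM in low pigment cells, Lars 109 and 132 CPM, Sars 306 and 338 CPM, and Tars 129 and 140.2 CPM. Among those over 1, Aars had 135 CPM in high pigment and 115 CPM in low pigment cells, and Nars 380 and 337 CPM.

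Read against the promoters above, 0 of the 9 measured members with the element were called lower in high pigment cells, against 5 of the 16 measured members whose promoter at hand lacks it. The median ratio was 0.987 (range 0.802 to 1.19) among members with the element and 0.911 (range 0.563 to 1.39) among those without it. The other 5 members called lower (Cth, Slc7a5, Wars, Mars and Vars) had no promoter in the table and are not in this count. Asns (0.802) and Yars (0.809), which hold the element, lay just inside the limit and were called lower in G1 cells, with ratios of 0.756 and 0.754. Among all measured genes with a promoter in the table, 24.7% of the 162 with the element and 22.9% of the 6164 without it were called lower. Elements outside the promoter stretch at hand were not searched for, so a member counted as lacking the element may hold it elsewhere. These are descriptions of few genes and were not tested.

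The libraries differed in their makeup by cell cycle phase. The authors' deposited phase calls placed 33.1%, 22.4% and 44.4% of high pigment cells in G1, S and G2M, against 39.4%, 37.1% and 23.5% of low pigment cells. The comparison was therefore repeated within each phase. In G1 cells 1 of 34 members was higher and 13 were lower in high pigment cells, beside 12.4% and 25.8% of all measured genes. In S cells 2 were higher and 9 lower, beside 13.6% and 22.3%. In G2M cells 1 was higher and 8 lower, beside 11.3% and 25.8%. The members' median log2 ratios in G1, S and G2M were −0.18, −0.08 and −0.14.

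Lower in all 3 phases were 5 of the 34 measured members (Atf4, Ddit3, Phgdh, Cth and Mars), a share close to the 13.6% of all measured genes. Higher in all 3 phases were 0 members, beside 5.89% of all measured genes. Atf4 had 340 CPM in high pigment G1 cells against 495 CPM in low pigment G1 cells, 348 against 516 CPM in S and 367 against 550 CPM in G2M. Ddit3 had 87.1 CPM in high pigment and 146 CPM in low pigment G1 cells, 58.5 against 115 CPM in S and 72.3 against 136 CPM in G2M. The Atf4 ratio lay between 0.668 and 0.686 and the Ddit3 ratio between 0.510 and 0.597, so both were called lower in each phase. Phgdh had 181 CPM in high pigment and 319 CPM in low pigment G1 cells, and its ratios in G1, S and G2M were 0.567, 0.664 and 0.665. Those of Cth were 0.496, 0.661 and 0.627, and those of Mars 0.566, 0.598 and 0.513.

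**Figure D2:**
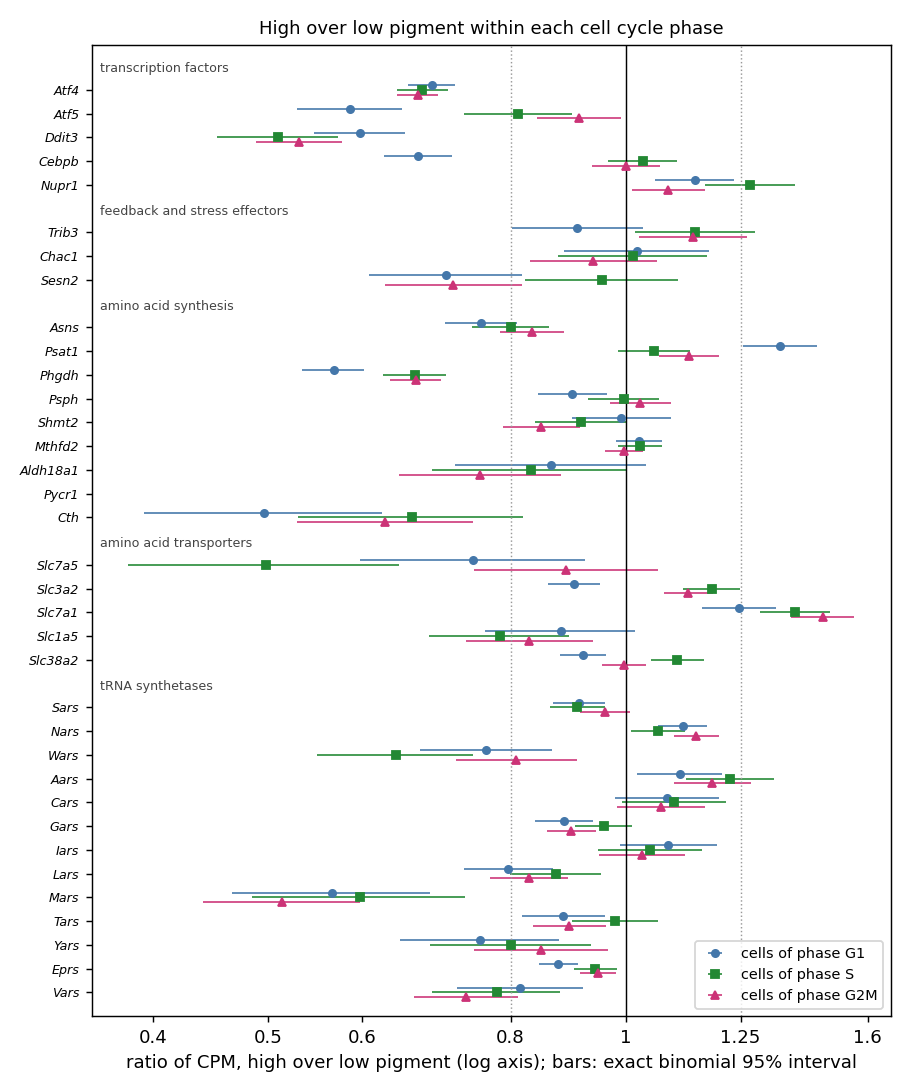
Ratio of CPM, high over low pigment, for each measured member in cells of phase G1, S and G2M on a log axis, with exact binomial 95% intervals; dotted lines mark the limits of the calls, and Pycr1 is not drawn. Atf4, Ddit3, Phgdh, Cth and Mars lie left of the lower line in each phase, while Cebpb and Atf5 do so in G1 cells only.

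For other members the gap depended on the phase. Cebpb had 161 CPM in high pigment and 241 CPM in low pigment G1 cells, a ratio of 0.668 (0.626–0.714), but its ratios were 1.03 in S and 1.00 in G2M. Atf5 had 65.1 CPM in high pigment and 111 CPM in low pigment G1 cells (ratio 0.586, 0.529–0.648), with ratios of 0.812 in S and 0.913 in G2M. Both factors were thus called lower in G1 cells alone. Slc7a5 had its smallest ratio in S, 0.498 (0.381–0.644), from 74 and 305 UMIs. Slc7a1 had ratios of 1.246, 1.39 and 1.47 in G1, S and G2M, the G1 ratio lying just under the limit. Psat1 was 1.35-fold higher in G1 cells (183 CPM in high pigment and 136 CPM in low pigment cells), with ratios of 1.06 and 1.13 in S and G2M. With phases called anew by scanpy on thinned cells, Psat1 was not called higher in G1 cells. Ratios over 1 in all 3 phases were found for 7 members (Nupr1, Psat1, Slc7a1, Nars, Aars, Cars and Iars), and ratios under 1 in all 3 for 20.

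Within each library, S and G2M cells were also set against G1 cells. In S over G1, 3 members were higher in both libraries, beside 10.2% of all measured genes, and 1 was lower, beside 3.59%. In G2M over G1, 2 were higher in both, beside 8.43%, and 0 lower, beside 2.41%. These counts are no more than the shares of genes at large. With phases called anew by scanpy on thinned cells, 5 members were higher in S over G1 in both libraries (the same 3 with Psat1 and Slc7a1), beside 11.1% of all genes, and 4 in G2M over G1 (the same 2 with Psat1 and Slc7a5), beside 9.44%.

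Shmt2, a gene of mitochondrial one-carbon metabolism (chromosome 10, 127517123 to 127522444) had 120 CPM in S cells and 87.8 CPM in G1 cells of the high pigment library, and 130 and 88.5 CPM in the low pigment library. Its S over G1 ratios were 1.36 in high pigment and 1.47 in low pigment cells, and its G2M over G1 ratios were 1.31 and 1.53. Mthfd2 (chromosome 6, 83305691 to 83325908) had 532 CPM in S and 406 CPM in G1 cells of the high pigment library, and 517 and 395 CPM in the low pigment library, a ratio of 1.31 in each. In G2M over G1 it was 1.28 in high pigment and 1.32 in low pigment cells. So both mitochondrial folate genes, called neither between the libraries, were higher in S and G2M than in G1 cells of each. Slc1a5, the glutamine exchanger gene (chromosome 7, 16781340 to 16798274), rose in S, with ratios of 1.33 in high pigment and 1.496 in low pigment cells, and had ratios of 1.15 and 1.22 in G2M. Ddit3 was the member that fell in S, 1.49-fold lower in high pigment (58.5 CPM in S and 87.1 CPM in G1) and 1.27-fold lower in low pigment cells (115 CPM in S and 146 CPM in G1).

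**Figure D3:**
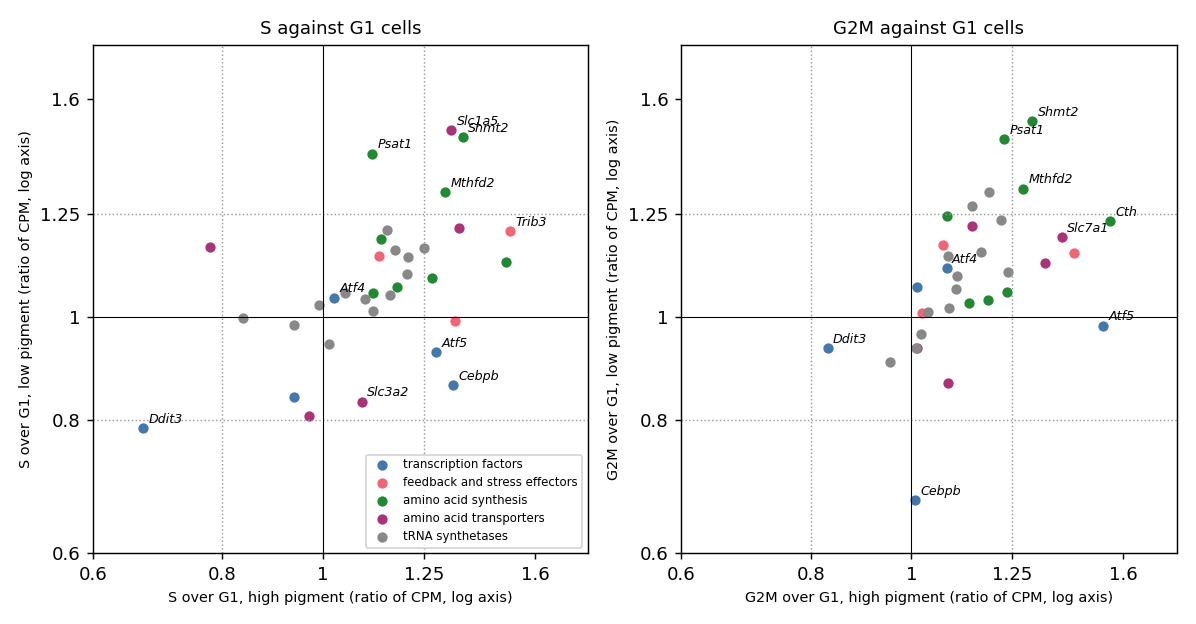
S over G1 (left) and G2M over G1 (right) ratio of CPM for each measured member, with the high pigment library on the horizontal and the low pigment library on the vertical log axis; dotted lines mark the limits of the calls. Shmt2 and Mthfd2 lie past the line in both libraries in both panels, Ddit3 lies in the lower left of the left panel, and Atf5 and Cebpb lie off the diagonal.

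Some phase differences differed in size between the libraries. Atf5 was 1.53-fold higher in G2M than in G1 cells of the high pigment library (99.5 and 65.1 CPM), while its ratio was 0.981 in the low pigment library (109 and 111 CPM). Trib3 was 1.51-fold higher in S than in G1 cells of the high pigment library and had a ratio of 1.20 in the low pigment library. Psat1 went the other way, with an S over G1 ratio of 1.11 in high pigment and 1.42 in low pigment cells. With phases called by scanpy on thinned cells, however, Psat1 was called higher in S over G1 in both libraries. None of the 13 synthetases was called in both libraries, and their median log2 ratios of S over G1 were 0.16 in high pigment and 0.07 in low pigment cells. The differences between the libraries in these phase ratios were not tested.

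The authors' 4 deposited clusters follow library and phase. Clusters 0 and 3 held 1520 and 523 of the high pigment cells, 14.3% and 89.1% of them in G1, and clusters 1 and 2 held 1023 and 822 of the low pigment cells, 70.3% and 0.365% in G1. The clusters were made from all genes, so the levels in them are descriptions. Atf4 had 352 and 347 CPM in the high pigment clusters 0 and 3, against 492 and 550 CPM in the low pigment clusters 1 and 2. Ddit3 had 66.1 and 91.1 CPM in clusters 0 and 3, against 141 and 124 CPM in clusters 1 and 2. Both were lower in each high pigment cluster than in either low pigment cluster. Phgdh had 211 and 210 CPM against 330 and 342 CPM, and Mars 19.8 and 21.0 CPM against 33.7 and 38.3 CPM, in the same order of clusters.

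Mthfd2 sorted by phase instead, with 515 CPM in cluster 0 and 383 CPM in cluster 3 of the high pigment library, and 543 CPM in cluster 2 and 411 CPM in cluster 1 of the low pigment library. Eprs was highest in the mostly G1 clusters of both libraries, with 656 CPM in cluster 3 against 522 CPM in cluster 0, and 625 CPM in cluster 1 against 571 CPM in cluster 2. By phase, however, it had 544, 551 and 550 CPM in G1, S and G2M cells of the high pigment library. In the low pigment library it had 620, 585 and 580 CPM. The gap of Eprs between clusters 0 and 3 was thus not seen between phases. Slc7a1 had 229 CPM in cluster 0 and 174 CPM in cluster 3, against 143 CPM in cluster 1 and 171 CPM in cluster 2.

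**Figure D4:**
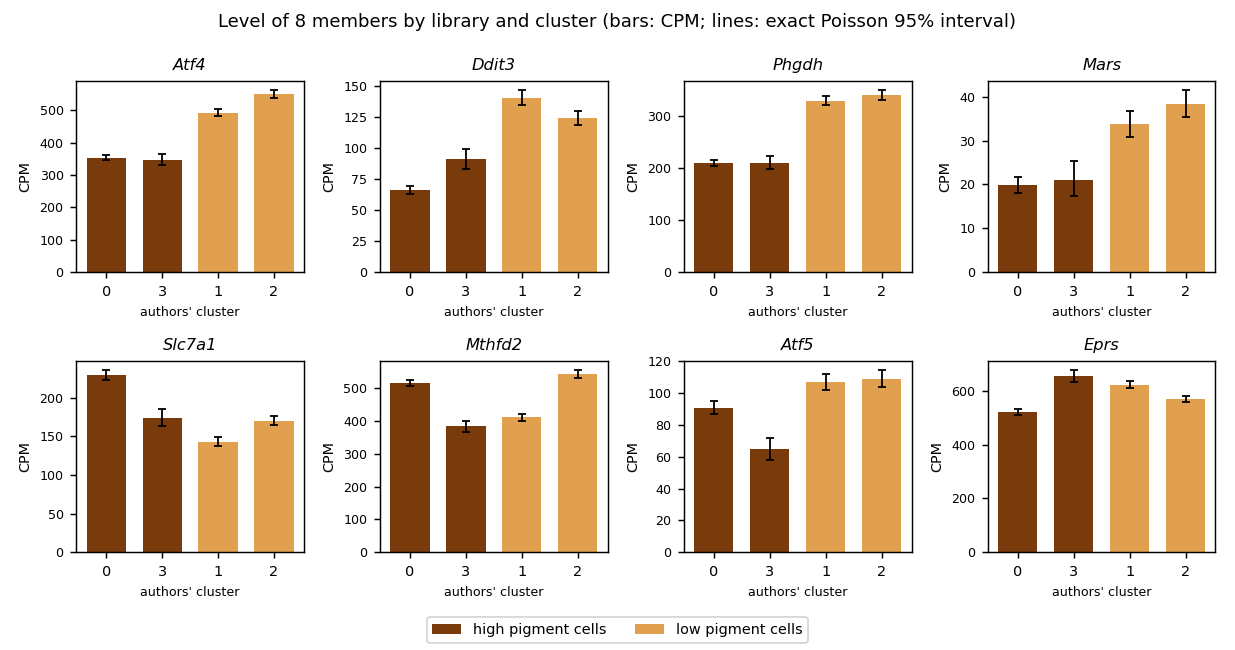
Level of 8 members in the authors' clusters, in CPM, with high pigment cells in clusters 0 and 3 and low pigment cells in clusters 1 and 2; lines are exact Poisson 95% intervals. Atf4, Ddit3, Phgdh and Mars are lower in both high pigment clusters, whereas Mthfd2 is higher in clusters 0 and 2, which hold few G1 cells.

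A few cells lay in clusters that held mostly cells of the other library. The 93 high pigment cells in clusters 1 and 2 had 450 CPM of Atf4 (410–492) and 150 CPM of Ddit3 (128–175), both above the levels of high pigment cells in clusters 0 and 3. The 55 low pigment cells in clusters 0 and 3 had 411 CPM of Atf4 (370–456) and 91.9 CPM of Ddit3 (72.9–114), below the levels of low pigment cells in clusters 1 and 2. The immediate early genes summed to 1973 CPM in those 93 high pigment cells and 1713 CPM in those 55 low pigment cells, beside 515 and 848 CPM in the high pigment clusters 0 and 3 and 2861 and 2199 CPM in the low pigment clusters 1 and 2. Their part in these levels was not tested.

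Across single cells, each thinned to 7500 UMIs, variation was described by the Fano factor, the variance of UMIs divided by their mean, which is 1 under pure counting. Its median over the 34 measured members was 1.22 in high pigment and 1.20 in low pigment cells, beside 1.05 over all measured genes in each library, and 29 of the 34 lay above that in each library. The members ranged between 1.01 and 1.63 in high pigment and between 0.983 and 1.67 in low pigment cells. Above the 95th percentile of measured genes, which was 1.42 in high pigment and 1.38 in low pigment cells, lay 5 members in high pigment cells (Ddit3, Nupr1, Mthfd2, Slc38a2 and Eprs) and 6 in low pigment cells (Atf5, Cebpb, Nupr1, Trib3, Mthfd2 and Eprs). Nupr1 had Fano factors of 1.61 in high pigment and 1.51 in low pigment cells, Mthfd2 1.55 and 1.67 and Eprs 1.63 and 1.43. Ddit3 had 1.57 in high pigment and 1.29 in low pigment cells, Slc38a2 1.57 and 1.33, Atf5 1.41 and 1.501, and Cebpb 1.252 and 1.53. Genes with more UMIs per cell can show a larger Fano factor, and the members were not compared with genes of like level.

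The median cell held 2 UMIs of Atf4 in the high pigment and 4 in the low pigment library (90th percentile 5 and 7), and 3 UMIs of Mthfd2 in each (90th percentile 7 in each). The 13 synthetases together gave the median cell 17 UMIs in each library (5th to 95th percentile 8 to 28 in high pigment and 9 to 28 in low pigment cells). The 5 factors together gave 6 UMIs in the high pigment and 8 in the low pigment library (1 to 12 and 3 to 15). The distributions overlapped widely, and 22.2% of high pigment cells held more UMIs of the factors than the low pigment median.

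Levels of the groups moved together across cells to a weak or modest degree. The summed synthesis genes and the summed synthetases had a Spearman rho of 0.372 over high pigment and 0.342 over low pigment cells, and the factors and the synthesis genes 0.331 and 0.253. Over G1 cells alone, synthesis genes and synthetases had a rho of 0.328 in high pigment and 0.300 in low pigment cells. For factors and synthesis genes it was 0.302 and 0.222 there. The other pairs of groups had a rho between 0.126 and 0.250 over high pigment cells of all phases. Over low pigment cells of all phases it lay between 0.070 (synthesis genes and transporters) and 0.280 (factors and synthetases). Cells of 1 library share its preparation, and all were set to 1 depth. The pair of genes whose lower rho in the 2 libraries was largest was Trib3 and Mthfd2 (0.210 in high pigment and 0.208 in low pigment cells), followed by Atf5 and Mthfd2 (0.198 and 0.214) and Asns and Mthfd2 (0.192 and 0.222). The median over all 595 pairs was 0.039 in high pigment and 0.038 in low pigment cells, so single pairs were weakly related at these counts. The factors and the immediate early genes had a rho of 0.143 over high pigment and 0.112 over low pigment cells. The synthetases and genes of the endoplasmic reticulum unfolded protein response had a rho of 0.212 over high pigment and −0.0757 over low pigment cells, and of 0.392 and −0.0304 over G1 cells alone.

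Other genes of the pathway were set beside the members. The counts in these lists stand beside 10.9% of all measured genes called higher and 23.4% called lower. Among the 12 measured eIF2alpha kinase, phosphatase and exchange factor genes, 1 was higher and 3 lower in high pigment cells. Ppp1r15a, the stress-induced subunit that directs dephosphorylation of eIF2alpha and is an ATF4 and CHOP target, had 43.8 CPM in high pigment and 106 CPM in low pigment cells, 2.41-fold lower (2.26–2.57). Ppp1r15b, its constitutive counterpart, had 75.8 and 57.2 CPM, 1.33-fold higher. Of 19 other measured ATF4-responsive genes, 2 were higher (the cystine transporter gene Slc7a11, 1.45-fold, and the translation repressor gene Eif4ebp1, 1.31-fold) and 7 lower. Atf3, Gadd45a and Ddit4 had the smallest ratios in that list, at 0.263, 0.314 and 0.490.

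Of the 10 other cytosolic synthetase and complex partner genes, 3 were lower (Dars, Farsa and Rars, with ratios of 0.745, 0.761 and 0.786) and 0 higher, Aimp2 having the largest ratio at 1.15. The mitochondrial synthetases had 9 of 17 genes measured, of which 5 were lower and 0 higher, and the median of their log2 ratios was −0.35. Lars2, the mitochondrial leucine enzyme gene, had 16.7 CPM in high pigment and 28.5 CPM in low pigment cells, 1.71-fold lower. Other serine and one-carbon genes had 3 of 11 lower and 0 higher, with Mthfd1, the cytosolic folate enzyme gene, lowest at a ratio of 0.678. Other amino acid transporters had 2 of 6 measured genes higher (Slc38a9, ratio 1.28, and Slc6a6, ratio 1.26) and 1 lower (Slc1a4, 0.773), with a median of 0.12. Genes of the endoplasmic reticulum unfolded protein response, the neighbouring stress pathway that shares the eIF2alpha branch, had 8 of 19 lower and 1 higher. They summed to 3841 CPM in high pigment and 5121 CPM in low pigment cells, with Pdia6 and the chaperone gene Hspa5 lowest (ratios 0.582 and 0.642) and the sensor gene Ern1 highest (1.56).

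**Figure D5:**
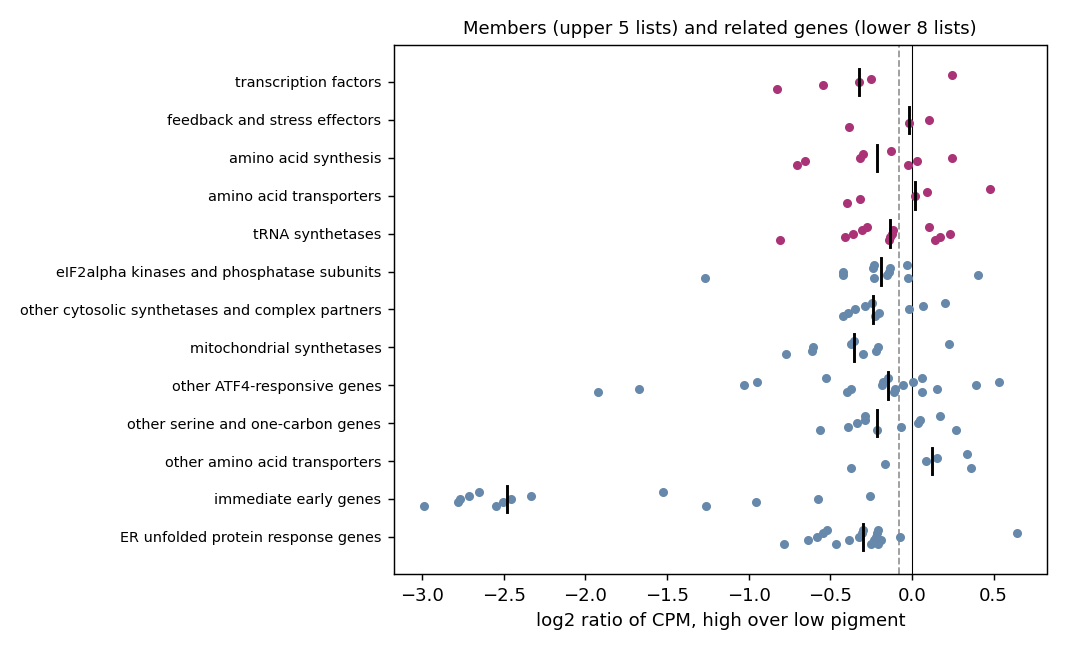
Log2 ratio of CPM, high over low pigment, of each measured gene in the 5 member groups and in 8 related lists; bars are list medians and the dashed line is the median of all measured genes, −0.08. Among the members Ddit3, Mars, Cth, Phgdh and Atf4 lie farthest below that line and Slc7a1 farthest above it, while the immediate early genes lie far below it, at a median of −2.48.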

How the data were processed

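Single-cell RNA was measured in 1 library per sort. The authors deposited UMI counts for each gene and barcode, with both libraries in 1 aggregated matrix. The submitters' processing notes name Cell Ranger 6.1.2 and build mm10. Whether aggregation equalised depth, and the strand setting, are not stated in these sources. The authors' cell table gives each cell's UMI counts, its percent of mitochondrial UMIs, the sort, a phase and a cluster, per the file headers. It held 4036 of 5818 barcodes, and its UMI totals differed from the matrix by at most 17 UMIs per cell.

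For each library, UMIs of the cells in the table were added up and scaled to CPM, with exact Poisson intervals; ratios have exact conditional binomial intervals (Python 3.11.15, scipy 1.17.1). These leave out variation between cells, cultures, sorts and preparations, so no test between groups was made. Any count of 3 UMIs equals 0.104 CPM in the high pigment and 0.0925 CPM in the low pigment library. The ratio and its interval were tested on simulated data. Doublets were scored with Scrublet in scanpy 1.11.5 at an expected rate of 0.06; a score over 0.37, a limit set at a gap in the scores after seeing them, marked 15 high pigment (0.702%) and 14 low pigment cells (0.737%), which were kept. Free RNA was not estimated. Ddit3 has 2 IDs in the matrix, and the other ID had 0 UMIs.

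The members and lists were chosen with earlier results of these data known. All 35 members are named, with full values for those called between libraries or, in both libraries, between phases, and for Atf4; related lists are named by up to 3 largest and 3 smallest ratios. Alternatives covered scaling, thinning, minimum level, doublets, depth, barcodes, phase weights, phase calls and the limit. Motifs were searched on both strands of RefSeq promoters.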

Additional observations from a re-analysis of the deposited data

Results flagged for a closer look

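The S over G1 ratio of Cebpb, a C/EBP partner of ATF4, was 1.334 in the high pigment library and 0.8626 in the low pigment library. It stands here because the change between phases ran in opposite directions in the 2 libraries. Cebpb had 215 CPM in S and 161 CPM in G1 cells of the high pigment library, against 208 and 241 CPM in the low pigment library. With 1 library per sort, the difference was not tested.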

How the results depend on the processing

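Each of the 11 members called between the libraries had the same sign in each of 10 settings that recomputed its ratio, and Atf4, Ddit3, Phgdh, Cth, Wars and Mars stayed past the limit in each. Counts of members higher and lower moved from 1 and 10 to 3 and 6 (median log2 ratio −0.056) with ratios centred on the median gene, to 6 lower of the 26 members that reached a minimum of 50 CPM (13.3% of all genes that did), to 4 higher (Trib3, Psat1, Slc7a1 and Aars; 17.4% of all genes) in cells with 12000 to 16000 UMIs, and to 0 and 4 at a limit of 1.5-fold (3.25% and 8.08%). With the minimum of 50 CPM, the members' share called lower lay above that of all genes. The window of 12000 to 16000 UMIs was not matched for phase, and the part of phase in its counts was not tested. As mean UMIs per cell with no scaling, an alternative chosen after seeing the data, they were 0 and 23 (2.33% and 62.03% of all genes; median −0.47); the median of all measured genes was then −0.42. With phases called by scanpy on thinned cells, 0 members were higher in G1 (12.9% of all genes), 5 were higher in S over G1 (11.1%) and 4 in G2M over G1 (9.44%) in both libraries. Without mitochondrial and ribosomal protein genes in the total, 2 were higher in G1 (12.7%). The members' median log2 ratio of cluster 0 over cluster 3 in the high pigment library was 0.02, but −0.24 in G1 cells only; the cause was not tested, and cluster 2 over 1 had too few G1 cells in cluster 2 to repeat this. Without thinning, rho of synthesis genes and synthetases was 0.446 in high pigment and 0.487 in low pigment cells, and that of factors and synthesis genes 0.416 and 0.379. No paired analysis was possible because each group has 1 library. Depth limits Pycr1, Slc7a5, Cth, Aldh18a1 and Mars most, the 5 members with the fewest UMIs (118 to 1160 per library).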
